A study of Mus musculus with 58 samples.

Results

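Surface molecules through which microglia can signal to lymphocytes were examined across 8 groups of microglia. The 8 genes were picked by name as costimulatory, checkpoint or adhesion molecules and were found by symbol among the 47643 genes of the count files. They were Cd80 and Cd86, Cd274, Cd40, Cd83, Cd72, Icam1 and Slamf7, and all 8 were matched to a single Ensembl gene.

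A T cell that recognises antigen on a presenting cell also reads the costimulatory and inhibitory proteins on that cell. CD80 and CD86 are B7 ligands that bind the activating receptor CD28 and the inhibitory receptor CTLA-4, and CD274 (PD-L1) binds the inhibitory receptor PD-1. CD40 is a receptor of the TNF receptor family that signals through TRAF adaptors when bound by CD40 ligand, CD83 is an immunoglobulin-family protein known from mature dendritic cells, and ICAM1 holds leukocytes through the integrins LFA-1 and Mac-1. CD72 is a C-type lectin-like protein with an inhibitory motif, best known from B cells, that binds semaphorin 4D and recruits the phosphatase SHP-1, and SLAMF7 is a SLAM-family receptor that binds itself. Several of these genes are textbook targets of NF-κB, which is activated by the kinase IKKβ, the product of Ikbkb.

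The study asked how tau and NF-κB shape microglia. Wild-type mouse primary microglia, grown from newborn cortex and hippocampus and shaken off mixed glia, received vehicle or full-length tau fibrils at 2 µg/ml for 24 h (4 cultures each). Adult microglia were isolated on magnetic beads from male PS19 mice, whose transgene makes human P301S tau in neurons under the prion protein promoter, and from non-transgenic (NTG) males aged 11.0 to 11.2 months (4 each). Primary microglia of genotype IkbkbCA carried Cx3cr1-CreERT2 and a Rosa26 transgene that makes constitutively active IKKβ once its stop cassette is removed, and IkbkbWT littermates lacked Cre (5 each). Primary Ikbkb-/- microglia carried Cx3cr1-CreERT2 and floxed Ikbkb, and Ikbkb+/+ microglia had the floxed alleles without Cre (4 each). The Ikbkb cultures of every genotype received 4-hydroxytamoxifen, so the genotypes differ by Cre as well as by IKKβ, and the Cre sits in the Cx3cr1 locus. No source used here ties the cultures to single animals or litters, so p-values measure only the spread between these samples.

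The 34 libraries held between 1672052 and 8349128 reads in genes. Ikbkb fell in Ikbkb-/- microglia, at 18.1, 21.9, 24.1 and 24.5 CPM (the count of a gene scaled to a common library total) against 44.8, 52.3, 52.6 and 53.8 in Ikbkb+/+ (log2 fold change -1.20 ± 0.12, SE). In IkbkbCA microglia Ikbkb differed from IkbkbWT by 0.17 ± 0.12 and was not called, but whether the transgene ends in the tagged stretch of Ikbkb is not given in the sources used here, so this checks nothing. Microglia markers were detected in every group, and Cx3cr1 fell with Cre, by 0.56 in IkbkbCA and by 1.16 in Ikbkb-/- on the log2 scale. The sex-linked transcripts were uneven: IkbkbWT libraries 1 to 3 had Ddx3y, a Y-linked gene, at 136 to 172 CPM and Xist, from the inactive X, at 1.62 to 2.75, whereas libraries 4 and 5 had Ddx3y at 1.09 and 1.95 and Xist at 446 and 464. The IkbkbCA libraries lay between these, with Ddx3y at 48.6 to 83.5 CPM and Xist at 145 to 273, where no IkbkbWT library lay. The Ikbkb-/- libraries (Ddx3y 152 to 171 CPM) and the Ikbkb+/+ libraries (34.2 to 68.4) did not overlap. Genotype and sex makeup of the cultures therefore cannot be told apart in either Ikbkb experiment. PS19 library 1, labelled male, had Xist at 178 CPM, and every PS19 library had Ddx3y at 103 CPM or more. The NTG libraries, also labelled male, had Xist at 28.2 to 32.4 CPM and Ddx3y at 144 to 199.

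The levels of the 8 genes covered a wide range, as the plot of levels by library shows. Values are CPM with trimmed-mean scaling over all 34 libraries. Each read marks the 3′ end of a transcript, so a count does not grow with transcript length. Cd72 spanned the most: its group mean was 77.5 times higher in tau-treated primary microglia than in adult NTG microglia. The ratio of the highest to the lowest group mean was 48.7 for Cd83, 24.2 for Cd86, 23.2 for Slamf7, 14.4 for Icam1 and 4.43 for Cd274. Cd83 and Cd86 had their highest levels in adult microglia and their lowest in the cultures of the tau experiment. The experiments were separate, so differences in level between them include differences of culture, age and isolation.

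**Figure D1:**
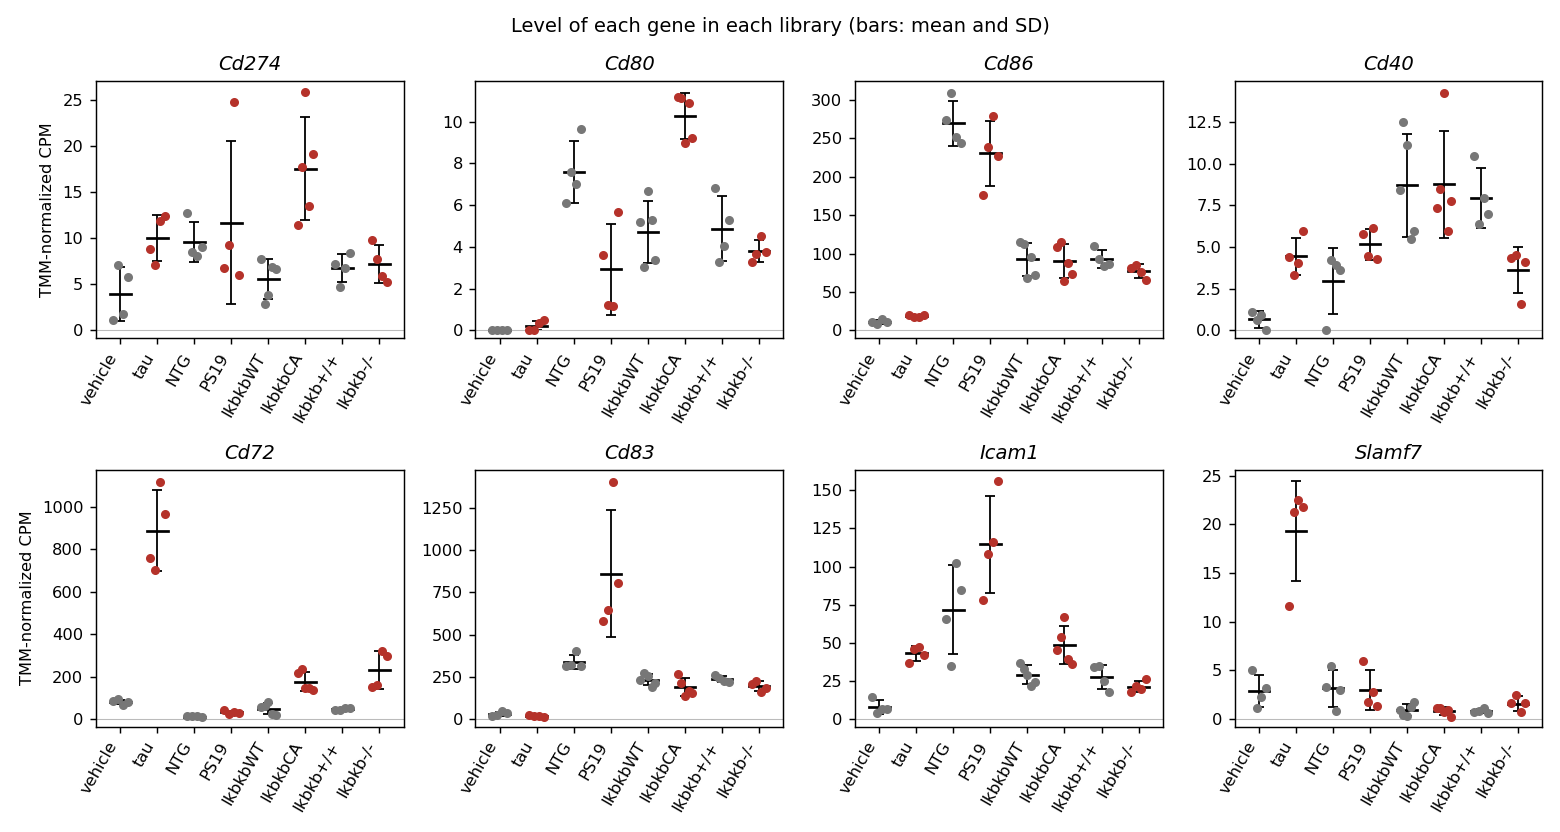
Level of each gene in every library (y axis, TMM-normalized CPM on a linear scale of its own in each panel, against the 8 groups on the x axis), with grey points for control libraries, red points for the others and bars for the group mean and SD. Cd72 lies highest in the tau-treated cultures (mean 886 CPM) and lowest in NTG microglia (11.4 CPM), while Cd83 is highest in PS19 microglia (861 CPM).

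For Cd86, the order of group means ran from NTG (270 ± 29.5, SD, n = 4) and PS19 (231 ± 42.4) through the 4 Ikbkb groups (77.2 to 93.2) to tau (18.7 ± 1.72) and vehicle (11.1 ± 2.46). The ranges of libraries overlapped within the adult pair and among the Ikbkb groups, and they were apart between PS19 and Ikbkb+/+, between Ikbkb-/- and tau, and between tau and vehicle. For Cd83, PS19 (861 ± 376) lay above NTG (339 ± 43.0) without overlap, then came the Ikbkb groups (188 to 238), and vehicle (31.1 ± 11.3) and tau (17.7 ± 4.82) overlapped each other below. Icam1 ran from PS19 (115 ± 32.0) and NTG (71.9 ± 29.1) through IkbkbCA (48.3 ± 12.4), tau (43.0 ± 4.88), IkbkbWT (28.9 ± 6.24), Ikbkb+/+ (27.7 ± 8.06) and Ikbkb-/- (21.3 ± 3.58) to vehicle (7.93 ± 4.51), and only the last neighbours did not overlap. Cd72 began with tau (886 ± 191), apart from Ikbkb-/- (232 ± 89.5), which overlapped IkbkbCA (176 ± 46.4). Vehicle (80.8 ± 10.4), IkbkbWT (48.6 ± 26.5) and Ikbkb+/+ (47.8 ± 4.96) followed, each overlapping its neighbour, and PS19 (32.1 ± 8.09) and NTG (11.4 ± 2.02) stood apart below.

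The remaining genes were low. Cd274 group means ran from 17.5 ± 5.59 CPM (SD, n = 5) in IkbkbCA to 3.95 ± 2.94 (n = 4) in vehicle, with every pair of neighbours overlapping. Cd80 ran from 10.3 ± 1.10 in IkbkbCA and 7.58 ± 1.5 in NTG to 0 counts in all 4 vehicle libraries, where a count of 0 allows up to 3 counts per library, or 1.30 CPM on average. Such limits cover counting error only. Cd40 stayed between 8.77 ± 3.20 in IkbkbCA and 0.652 ± 0.484 in vehicle. Slamf7 reached 19.3 ± 5.13 in tau and group means at or under 3.17 elsewhere, with 1 to 16 counts in each library of the 4 Ikbkb groups.

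Sequence just upstream of a gene's start is where many regulators bind, and the windows of Cd72 and Icam1 are shown. Cd72 was called in 3 and Icam1 in 2 of the 4 comparisons. Cd274, also called in 2, has a window that is not shown and holds none of the motifs named below. Cd72 lies on mouse chromosome 4 (GRCm38, 43446462 to 43454628, minus strand) and Icam1 on chromosome 9 (21015985 to 21028817, plus strand). The windows, from RefSeq on GRCm38.p6, run from 250 bases before to 50 bases after the annotated start and are chr4:43454577-43454876 (minus strand) and chr9:21015690-21015989 (plus strand). Capitals mark matches to the short NF-κB core described after them.

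Cd72: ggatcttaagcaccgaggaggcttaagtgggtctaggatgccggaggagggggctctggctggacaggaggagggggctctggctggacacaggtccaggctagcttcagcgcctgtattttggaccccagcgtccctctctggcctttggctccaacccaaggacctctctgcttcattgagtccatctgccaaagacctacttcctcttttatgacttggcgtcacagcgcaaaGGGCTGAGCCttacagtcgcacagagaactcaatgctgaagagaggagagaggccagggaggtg

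Icam1: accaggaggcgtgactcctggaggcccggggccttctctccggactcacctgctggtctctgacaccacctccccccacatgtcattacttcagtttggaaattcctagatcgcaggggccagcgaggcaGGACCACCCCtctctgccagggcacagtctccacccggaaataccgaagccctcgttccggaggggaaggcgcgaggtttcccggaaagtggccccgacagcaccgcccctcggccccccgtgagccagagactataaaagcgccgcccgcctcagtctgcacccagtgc

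The first motif was a short core shared by NF-κB sites, which reads GGG, then any 5 bases, then CC, searched on both strands like the others. It matched once in each window, as GGGCTGAGCC at bases 237 to 246 for Cd72 and, on the other strand, as GGACCACCCC at bases 131 to 140 for Icam1. It is loose, since 50.8% of all 32851 promoter windows of this length hold it. Of the 8 genes, 5 had a window (Cd274, Cd80, Cd72, Icam1 and Slamf7), and none of the 5 held the stricter κB consensus (8.46% of windows) or the interferon-stimulated motif, GAAA and GAAA with any 2 bases between them (3.44%). Cd80 held the short core at 2 places, and Cd274 and Slamf7 held none of these motifs. The short core and the stricter κB consensus each begin with GGG, so a site that begins otherwise is missed. The Icam1 window, for example, also holds tggaaattcc, which neither pattern can match. The capitals therefore need not mark the stretch that NF-κB binds, and lack of a match does not exclude a site. These are matches of letters and not measured binding.

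Tau fibrils raised Cd72, Slamf7, Icam1, Cd274 and Cd86 in primary microglia and lowered Cd83. Of the 6 genes with enough reads to test, 5 were higher (against 14.5% of all genes tested) and 1 was lower (15.4%) at an adjusted p under 0.05, where 29.9% of all genes tested were called in either direction. The median log2 fold change of these 6 was 1.93, and that of all 10408 genes tested was -0.01. Calls are from edgeR's quasi-likelihood test with Benjamini-Hochberg adjustment over all genes tested in the comparison.

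Cd72 had 759, 703, 1118 and 964 CPM in the 4 tau libraries and 82.9, 92.9, 67.6 and 79.7 in the vehicle libraries. Every tau library was above every vehicle library, by a log2 fold change of 3.50 ± 0.16 (SE, adjusted p = 6.31e-16). The exons of Cd72 overlap those of Tesk1, a kinase gene on the opposite strand, and the strand setting of the counting is not given in the sources used here. Tesk1 differed by 0.23 on the log2 scale and was not called (adjusted p = 0.227).

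Icam1 had 36.5, 45.8, 47.5 and 42.1 CPM with tau and 14.5, 4.15, 6.31 and 6.81 with vehicle. The groups did not overlap, and the log2 fold change was 2.62 ± 0.27 (adjusted p = 2.00e-08). Slamf7 had 11.6, 21.3, 22.5 and 21.8 CPM with tau and 5.01, 1.19, 2.25 and 3.14 with vehicle. The lowest tau library was again above the highest vehicle library, and the log2 fold change was 2.97 ± 0.38 (adjusted p = 7.32e-07).

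The B7 ligands moved less. Cd86 had 20.5, 17.1, 17.3 and 19.8 CPM with tau and 11.1, 8.50, 14.4 and 10.5 with vehicle, without overlap (0.82 ± 0.26, adjusted p = 0.0159). Cd274 had 8.85, 7.08, 11.8 and 12.4 CPM with tau and 1.11, 7.11, 1.80 and 5.77 with vehicle, so that the lowest tau library lay just under the highest vehicle library (1.25 ± 0.41, adjusted p = 0.0222). Cd80 had at most 1 count in each of these 8 libraries and was not detectable at this depth.

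Cd83 was the only gene of the 8 to fall, from 20.6, 24.5, 46.0 and 33.5 CPM with vehicle to 22.1, 19.6, 18.1 and 10.9 with tau. The groups overlapped, and the log2 fold change was -0.76 ± 0.25 (adjusted p = 0.0245). Cd40 had too few reads to be tested, with 8, 8, 11 and 12 counts in the tau libraries and 2, 3, 2 and 0 in the vehicle libraries. Its 4 tau libraries lay above its vehicle libraries, and the summed counts gave a ratio of 6.85 with a 95% counting interval of 3.03 to 18.1. Of the 6 genes tested, 4 did not overlap between the groups in the higher direction, against 12.4% of all genes tested. Cd40, which was not tested, was apart as well.

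Microglia markers moved with the tau treatment. The summed level of 9 markers was 10612 to 12153 CPM with tau and 4741 to 6164 with vehicle, and 6 of the 9 were called higher (median log2 fold change 1.22), while neuron markers ran from 132 to 187 CPM with tau against 259 to 326 with vehicle. In bulk samples, fewer cells of a type and less RNA per cell cannot be told apart. When each library was scaled to its microglia markers, an alternative chosen after seeing the data that moved the median of all genes to -1.13, Cd72 (2.39), Slamf7 (1.83) and Icam1 (1.46) were still called higher. Cd274 fell short at 0.21, Cd86 changed sign to -0.30 without a call, and Cd83 was lower by -1.88. That scaling called 297 of all 10408 genes tested higher and 8918 lower. Of the calls, that of Cd274 was lost when tau library 3 or 4 or vehicle library 1 or 3 was left out, that of Cd83 without tau library 3 or 4 or vehicle library 3, and that of Cd86 without vehicle library 2.

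**Figure D2:**
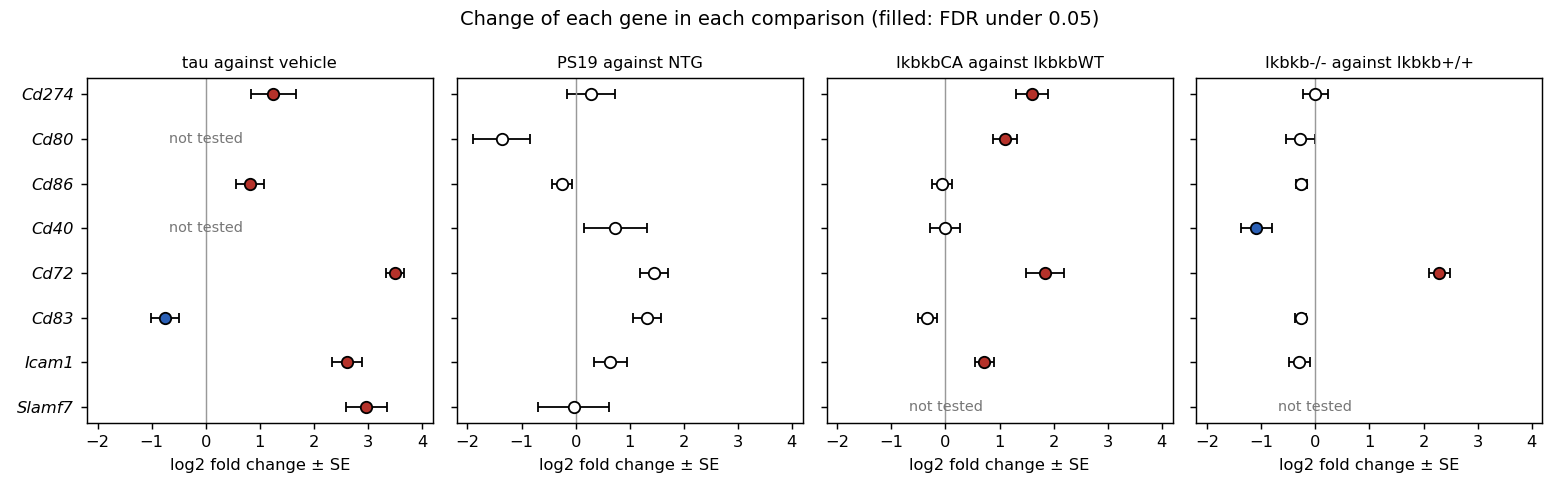
Log2 fold change (x axis) of each gene (y axis) in the 4 comparisons (panels), with bars of ±1 SE and points filled red (higher) or blue (lower) where the adjusted p is under 0.05. Cd72 is above 0 in all 4 comparisons, from 1.46 in PS19 to 3.50 with tau, and called in 3 of them.

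In microglia of PS19 mice none of the 8 genes was called (0.0707% of all genes tested were called, 8 of 11323, and 977 had an unadjusted p under 0.05). The highest log2 fold changes were those of Cd72 and Cd83. Cd72 had 43.2, 25.3, 32.9 and 27.0 CPM in PS19 and 12.2, 12.7, 12.5 and 8.42 in NTG microglia. All PS19 libraries were above all NTG libraries, with a log2 difference of 1.46 ± 0.26 (adjusted p = 0.0769). Cd83 had 582, 648, 1408 and 807 CPM in PS19 and 315, 322, 404 and 317 in NTG, again without overlap (1.32 ± 0.27, adjusted p = 0.108).

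These 2 genes stood close to the threshold. DESeq2 called both (adjusted p = 0.000579 for Cd72 and 0.000922 for Cd83) among 98 genes in all, as did edgeR without the filter on low counts and edgeR without PS19 library 2, whereas limma-voom called neither and 4 genes in all. Cd72 in this comparison rested on 14 to 57 reads in each NTG library and 85 to 238 in each PS19 library.

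Cd40 had 5.81, 4.47, 6.14 and 4.29 CPM in PS19 and 0, 4.23, 3.94 and 3.61 in NTG microglia. The groups were apart by little, and the log2 difference was 0.74 ± 0.58 (adjusted p = 0.764). Cd80 was the one gene with every PS19 library below every NTG library, at 3.63, 1.19, 1.17 and 5.67 against 6.09, 7.61, 7.00 and 9.63 CPM (-1.37 ± 0.52, adjusted p = 0.480). Thus 3 genes were apart in the higher and 1 in the lower direction, where 3.67% and 2.23% of all genes tested were.

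Icam1 had 78.2 to 156 CPM in PS19 and 34.6 to 103 in NTG (0.64 ± 0.30, adjusted p = 0.585). Cd86, at 177 to 280 CPM against 244 to 310, differed by -0.25 ± 0.19 (adjusted p = 0.739). Cd274 was at 24.7 CPM in PS19 library 3 and 6.01 to 9.24 in the other PS19 libraries, and at 8.10 to 12.7 in NTG (0.29 ± 0.45, adjusted p = 0.897). Slamf7 stayed at 0.875 to 5.99 CPM in both groups (-0.04 ± 0.65, adjusted p = 0.994). Markers of other blood cells were present in the adult preparations. Monocyte and neutrophil markers summed to 354 to 2118 CPM in PS19 and 1297 to 1975 in NTG, and dendritic cell markers to 12.8 to 40.9 and 29.5 to 65.5. B cell markers summed to 288 to 498 CPM in PS19 and 332 to 434 in NTG, with Cd79a and Ms4a1 at 0 in all 8 libraries. Their part in the levels of these genes was not tested.

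Primary IkbkbCA microglia, with constitutively active IKKβ, had more Cd274, Cd80, Cd72 and Icam1 than IkbkbWT microglia. Of the 7 genes tested, 4 were higher (7.31% of all genes tested were) and none was lower (7.16%), and the median log2 fold change of the 7 was 0.71 against -0.05 for all 11697 genes. Slamf7 had 1 to 16 counts per library and was not tested.

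Cd274, the PD-1 ligand, had 11.4, 17.7, 25.8, 13.5 and 19.2 CPM in the IkbkbCA libraries and 7.77, 2.82, 3.78, 6.86 and 6.61 in the IkbkbWT libraries. Every IkbkbCA library was above every IkbkbWT library (1.60 ± 0.30, adjusted p = 0.00354). Cd80 had 11.2, 11.1, 8.95, 10.9 and 9.21 CPM against 5.18, 3.02, 6.65, 5.30 and 3.36, also without overlap (1.10 ± 0.22, adjusted p = 0.00626). Its B7 partner Cd86 had 64.3 to 115 CPM in IkbkbCA and 68.2 to 115 in IkbkbWT, and the difference of -0.06 ± 0.18 was not called (adjusted p = 0.883).

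Cd72 had 218, 235, 144, 146 and 138 CPM in IkbkbCA and 58.1, 59.9, 82.0, 22 and 21 in IkbkbWT (1.84 ± 0.35, adjusted p = 0.00439). The groups did not overlap, and the IkbkbWT libraries split into 3 higher and 2 lower ones along the same line as Ddx3y and Xist. Taken after seeing the data, the comparison with libraries 1 to 3 alone gave 1.39 (adjusted p = 0.00520) and that with libraries 4 and 5 alone gave 3.04 (adjusted p = 0.000351). Cd274 stayed called in both splits (1.84 and 1.37), as did Cd80 (1.03 and 1.26). No IkbkbWT library had Ddx3y and Xist at the levels of the IkbkbCA libraries, so these splits cannot separate sex makeup from genotype. Cd72, Cd274 and Cd80 did not overlap between the groups, where 6.92% of all genes tested were apart in the higher direction. No gene of the 8 was apart in the lower direction (5.03% of all genes tested).

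Icam1 had 45.1, 54.0, 66.9, 39.6 and 35.9 CPM in IkbkbCA and 37.1, 32.7, 29.1, 21.7 and 24.2 in IkbkbWT. The lowest IkbkbCA library lay under the highest IkbkbWT library, and the log2 fold change was 0.71 ± 0.18 (adjusted p = 0.0184). The call was lost against IkbkbWT libraries 1 to 3 alone (0.54, adjusted p = 0.123) and without IkbkbCA library 2 (adjusted p = 0.0502).

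Cd40, a textbook NF-κB target, had 5.98 to 14.3 CPM in IkbkbCA and 5.46 to 12.5 in IkbkbWT, a difference of -0.01 ± 0.28 (adjusted p = 0.991). Cd83 had 138 to 269 CPM against 191 to 274 (-0.34 ± 0.17, adjusted p = 0.234). Microglia markers summed to 14001 to 22262 CPM in IkbkbCA and 10872 to 15757 in IkbkbWT, with 4 of 9 called higher and 1 lower, and markers of border-associated macrophages to 469 to 1005 against 1242 to 1634, with 3 of 4 tested called lower. Monocyte and neutrophil markers summed to 18.5 to 84.4 CPM in IkbkbCA and 7.17 to 11.3 in IkbkbWT, with 1 of 2 tested called higher, and B cell markers to 3.26 to 6.58 against 9.76 to 22.7, with the 1 tested called lower. Scaled to the microglia markers, which moved the median of all genes to -0.55, Cd274 (1.16) and Cd72 (1.33) stayed higher, Cd80 (0.57) and Icam1 (0.27) lost their calls, and Cd86 (-0.58) and Cd83 (-0.88) were called lower. That scaling called 313 of all 11697 genes tested higher and 4934 lower. The part of the macrophage and blood cell markers in the changes of these genes was not tested.

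Ikbkb-/- microglia had more Cd72 and less Cd40 than Ikbkb+/+ microglia. Of the 7 genes tested, 1 was higher (7.64% of all genes tested) and 1 lower (6.96%), and their median log2 fold change was -0.27 against 0.00 for all 11242 genes. Slamf7, with 2 to 12 counts per library, was not tested.

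Cd72 had 152, 158, 320 and 298 CPM in Ikbkb-/- and 43.2, 44.4, 53.9 and 49.8 in Ikbkb+/+ libraries. The groups were far apart, with the Ikbkb-/- libraries in a lower and a higher pair, and the log2 fold change was 2.29 ± 0.20 (adjusted p = 1.52e-07). Tesk1, on the opposite strand, rose by 0.50 on the log2 scale in the same libraries (adjusted p = 0.00083). Cd72 therefore rose both where IKKβ was made constitutively active and where Ikbkb was deleted. Cre is present in the first group of both comparisons and absent from both controls, and the data hold no group with Cre alone, so the part of Cre cannot be told apart from that of IKKβ.

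Cd40 had 4.35, 4.49, 1.58 and 4.13 CPM in Ikbkb-/- and 10.4, 6.36, 7.93 and 6.99 in Ikbkb+/+ libraries, on 7 to 23 and 29 to 54 reads. All Ikbkb-/- libraries were below all Ikbkb+/+ libraries (-1.09 ± 0.28, adjusted p = 0.0139). The call was lost in a joint fit with the IkbkbCA experiment (-1.11, adjusted p = 0.0658) and with Ddx3y as a covariate (-1.59, adjusted p = 0.360), under which Cd72 stayed called (3.17, adjusted p = 0.00641). Ddx3y did not overlap between these groups, so the covariate nearly follows genotype. Fits with it cannot separate sex makeup from genotype. Cd72 was thus apart in the higher direction (8.82% of all genes tested) and Cd40 in the lower (9.27%).

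The other genes were not called. Cd83 had 161 to 225 CPM in Ikbkb-/- and 222 to 260 in Ikbkb+/+ (-0.27 ± 0.10, adjusted p = 0.0757). Cd86 had 65.4 to 85.6 against 84.3 to 109 CPM (-0.26 ± 0.11, adjusted p = 0.125), and Icam1 17.9 to 26.2 against 17.6 to 34.5 CPM (-0.30 ± 0.19, adjusted p = 0.348). With Ddx3y as a covariate Icam1 was called lower, at -1.70 ± 0.42 (adjusted p = 0.0358), in a fit that cannot separate sex makeup from genotype. Cd80, at 3.26 to 4.52 against 3.29 to 6.84 CPM, differed by -0.28 ± 0.28. Cd274, at 5.21 to 9.78 against 4.72 to 8.41 CPM, differed by 0.00 ± 0.23. Border-associated macrophage markers summed to 402 to 701 CPM in Ikbkb-/- and 1424 to 1648 in Ikbkb+/+, with all 4 tested called lower, and B cell markers to 12.4 to 17.9 against 20.7 to 52.2 CPM, with Cd79a at 0 in every library. Monocyte and neutrophil markers summed to 7.06 to 12.4 against 7.38 to 334 CPM, with 2 of 3 tested called lower, and oligodendrocyte markers to 371 to 436 against 190 to 290 CPM, with 4 of 5 called higher. Their part in the change of Cd72 and Cd40 was not tested.

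Differences between the effects were tested directly for pairs of comparisons with no sample in common. Of 23 such differences, 11 were called. Between active IKKβ and Ikbkb deletion (3.12% of all genes tested differed, 2.23% with the first effect higher and 0.899% with it lower), the effect of active IKKβ was higher for Cd274 by 1.58 ± 0.42 on the log2 scale (adjusted p = 0.0446) and for Cd80 by 1.41 ± 0.35 (adjusted p = 0.0319). Each lost its call when single libraries were left out, Cd274 in 11 and Cd80 in 8 of 18 cases, and Cd274 also by limma-voom (1.61, adjusted p = 0.0731) and with total-count scaling (1.53, adjusted p = 0.0532). The 2 effects on Cd72 differed by -0.43 ± 0.47 (adjusted p = 0.728), on Icam1 by 1.05 (adjusted p = 0.0629) and on Cd40 by 1.12 (adjusted p = 0.231), and none of these was called.

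Between tau and active IKKβ (9.42% of all genes tested differed, 5.86% with the tau effect higher and 3.55% with it lower), tau had the higher effect on Icam1 by 1.82 ± 0.36 (adjusted p = 0.00266) and on Cd72 by 1.59 ± 0.43 (adjusted p = 0.0235). Slamf7 was called at 3.05 ± 0.67 (adjusted p = 0.00621). With 1 to 16 counts per library it was not tested between IkbkbCA and IkbkbWT, so the subtracted effect is poorly known. The difference mostly repeats the tau effect on Slamf7 (2.97). Cd40 was also called, at 2.72 ± 0.62 (adjusted p = 0.00817), but with vehicle libraries of 0 to 3 counts this fitted value depends on the prior count. The call of Cd72 was lost without vehicle library 3 (adjusted p = 0.0506). By limma-voom neither Cd72 (1.36, adjusted p = 0.0582) nor Cd40 (2.58, adjusted p = 0.0625) was called.

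Between tau in culture and PS19 (8.07% of all genes tested differed, 4.42% with the tau effect higher and 3.65% with it lower), Cd83 had effects of opposite sign, called with tau and not in PS19, with a difference of -2.17 ± 0.39 (adjusted p = 0.00086). Tau had the higher effect on Slamf7 by 2.83 ± 0.79 (adjusted p = 0.0267), on Cd72 by 1.97 ± 0.29 (adjusted p = 8.62e-05), on Icam1 by 1.87 ± 0.45 (adjusted p = 0.0106) and on Cd86 by 0.98 ± 0.27 (adjusted p = 0.0252). The calls of Slamf7 and Cd86 were each lost when vehicle library 2 was left out, that of Slamf7 also without NTG library 2 and that of Cd86 also without vehicle library 4 and by limma-voom (1.05, adjusted p = 0.0539).

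**Figure D3:**
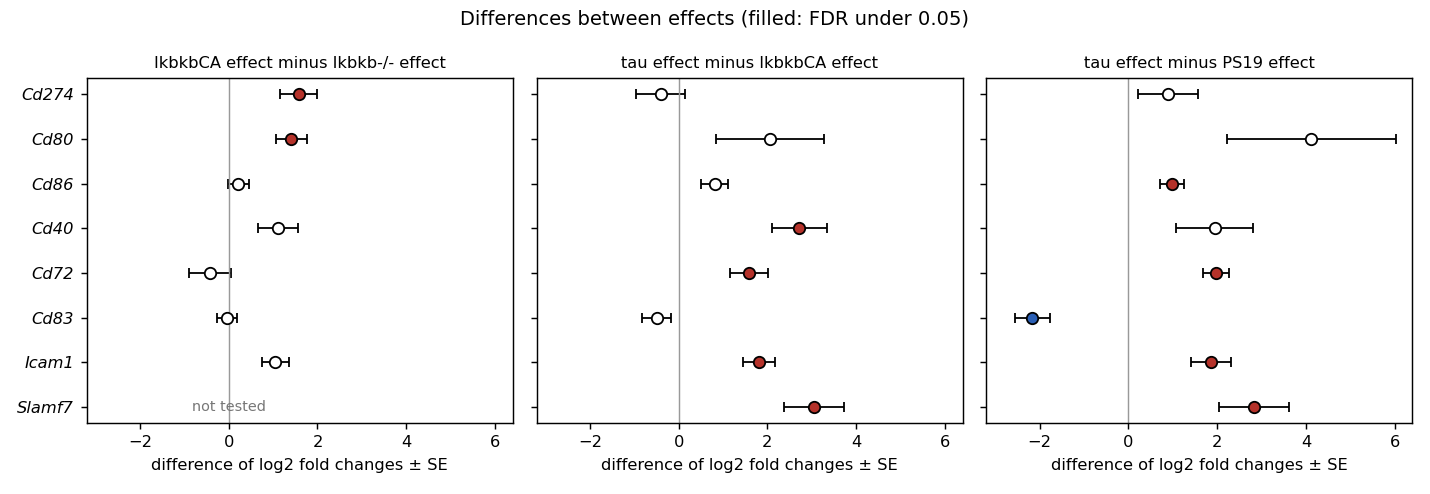
Difference between the log2 fold changes of paired comparisons (x axis, log2 units, ±1 SE) for each gene (y axis) in 3 pairs of comparisons (panels), with filled points for adjusted p under 0.05. Cd83 alone lies below 0 with a call (-2.17, tau minus PS19).

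Other genes of the same pathway were read from 7 lists that hold 67 matched genes. With tau, 21 of 39 tested were higher (14.5% of all genes tested) and 4 lower (15.4%), and their median log2 fold change was 0.68. The SLAM family moved in 1 direction, with 6 of 6 tested higher. Slamf9 rose by 4.23 ± 0.19 (13.5 to 233 CPM) and Slamf8, another family member of myeloid cells, by 3.26 ± 0.51. Itgal, the α chain of the ICAM1 receptor LFA-1, rose by 2.86 ± 0.14 (39.0 to 275 CPM), and its partners Itgam (1.58) and Itgb2 (1.13) rose too. Icosl, the B7-family ligand of ICOS, rose by 2.81 ± 0.29. The genes for the partners of CD72 rose as well, Ptpn6 (SHP-1) by 1.95 and Sema4d (semaphorin 4D) by 1.30. March1, a ubiquitin ligase that removes CD86 from the surface, rose by 2.02. The lower genes were Cd28 (-1.04), Cd276 (-0.96), Nectin3 (-0.65) and Vsir (-0.35). Scaled to the microglia markers, 10 of these genes were higher and 18 lower. That scaling called 297 of all 10408 genes tested higher and 8918 lower.

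In PS19 microglia 1 of 48 tested genes was called (0.0707% of all genes tested), the integrin Itgax, at 201 against 46.8 CPM (2.08 ± 0.19, adjusted p = 0.000822). Of the 8 TNF-superfamily costimulators, 1 had enough reads to be tested here, without a call, and none was tested in the cultures. No gene of the lists was called with age in months as a covariate.

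With active IKKβ, 15 of 43 tested genes were higher (7.31% of all genes tested) and 4 lower (7.16%), and the median was 0.56. Slamf8 (3.72 ± 0.42), Cd5 (3.22 ± 0.41, 0.686 to 6.62 CPM), Slamf9 (2.38 ± 0.28) and Itgal (1.63 ± 0.15) led, and Traf3 (1.02) and Traf2 (0.57), adaptors of CD40, and Sema4d (1.39) were also higher. Cd28 (-1.77 ± 0.33), Cd200r1 (-0.90), Traf5 (-0.69) and Traf6 (-0.52) were lower. Cd28 and Cd5 are best known from lymphocytes, and the 5 T cell markers summed to at most 1.45 CPM in these 10 libraries, with Cd3e and Cd3g at 0 in each. Scaled to the microglia markers, 5 genes of the lists were higher and 11 lower. That scaling called 313 of all 11697 genes tested higher and 4934 lower.

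With Ikbkb deleted, 9 of 40 tested genes were higher (7.64% of all genes tested) and 4 lower (6.96%), and the median was 0.07. Cd244a (1.51 ± 0.40), Slamf9 (1.48 ± 0.24), Lgals9 (1.05 ± 0.13), a galectin that binds TIM-3, and Itgal (0.88 ± 0.18) led. Itgax (-3.63 ± 0.70), Pecam1 (-2.01 ± 0.42), Slamf8 (-1.71 ± 0.52) and Itga4 (-0.52 ± 0.10) were lower. Itgax and Slamf8 overlapped between the groups. Slamf9, Itgal, Ly9, Lgals9, Cd47 and Sema4d were called higher with tau, with active IKKβ and with Ikbkb deleted. These 6 were singled out after their values were seen. The share of all genes tested that were called higher in each of these comparisons at once was not counted.

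**Figure D4:**
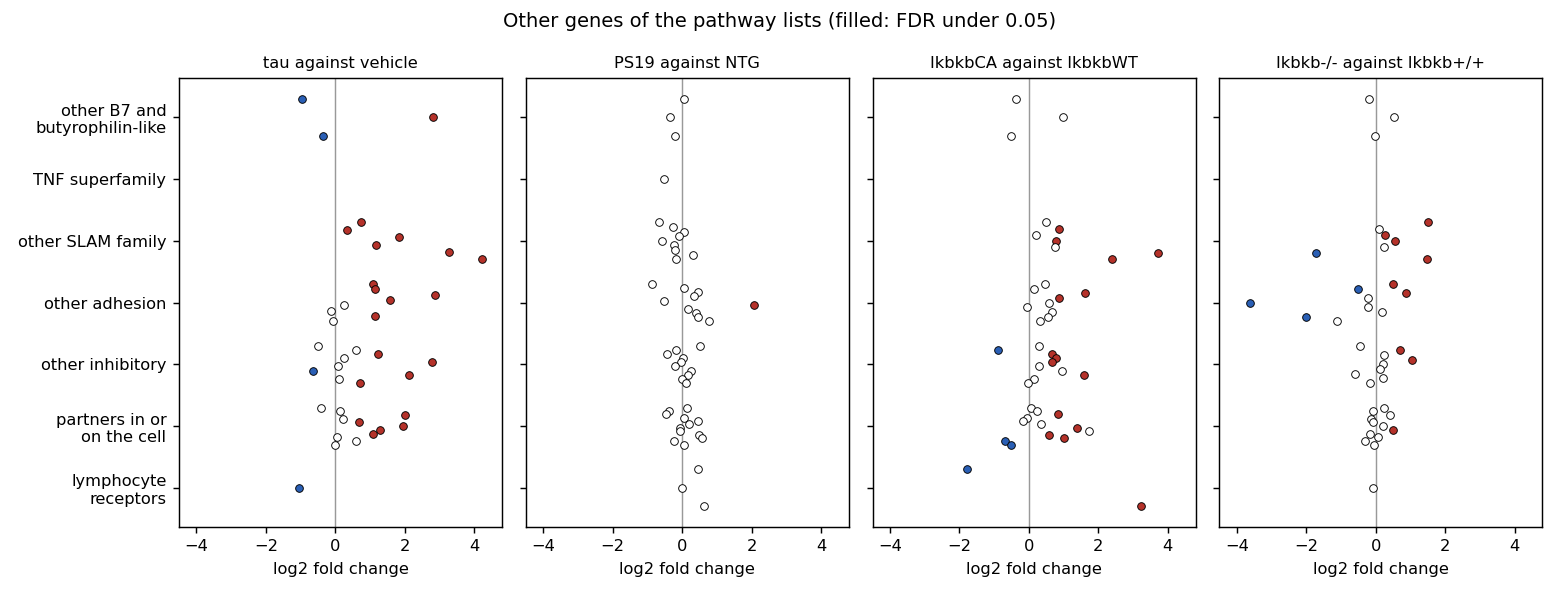
Log2 fold changes (x axis) of the other pathway genes tested in each comparison, by list (y axis), with filled points for adjusted p under 0.05. With tau all 6 tested SLAM-family genes lie above 0 and are called.

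For each gene the response across the 34 libraries, taken as the log2 level minus the mean of the control group of the same experiment, was set against that of the 9366 other genes tested in all 4 comparisons. These correlations share libraries and treatments and are descriptions. Cd72 was followed most closely by Shisa5 (r = 0.965), Lgals3bp (0.955) and Npc2 (0.953), and Icam1 by Cyba (0.914), Tgfbi and Hcls1 (both 0.912). Cd83 had Pmp22 (0.880), Ank and Pmvk as nearest genes, Cd86 had Abcc3 (0.854), Taz and Cyfip1, and Cd274 had Gch1 (0.803), Psmd10 and Tnfaip2. Cd80, Cd40 and Slamf7 were not tested in every comparison, and their nearest genes were Rap1gds1 (0.877), Ccl9 (0.838) and Fcer1g (0.843), which for Cd80 rests on an experiment with almost no reads. Among the 8 genes themselves, Cd40 with Icam1 (0.72) and Cd72 with Icam1 (0.65) had high positive values, and Cd80 with Cd83 (-0.70) had the lowest.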

How the data were processed

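Libraries were made with a 3′ mRNA kit (QuantSeq FWD), and the authors mapped them to GRCm38. The submitters' processing notes name STAR, RSEM, edgeR and limma. According to the paper, the microglia libraries were mapped on the BlueBee platform, and STAR was used for the cortex samples. The deposited values are raw counts of reads per Ensembl gene, 1 file per library, each with 5 closing lines that name no gene and were left out. Of these, reads outside genes made up 12.4 to 38.3%, and ambiguous reads 0.409 to 0.708%, of the sum of gene, outside and ambiguous reads. The counter's strand setting is not given in the sources used here. Of 58 samples, the 24 cortex samples were not analysed here.

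Each comparison was fitted on its own groups with edgeR 4.0.16 (R 4.3.3): TMM scaling, filterByExpr (minimum count 10, minimum total 15), the quasi-likelihood test and Benjamini-Hochberg adjustment, called under 0.05. The SE was the log2 fold change divided by the root of F. Differences between effects were contrasts over 4 groups. Replicate libraries were compared in 56 pairs, and none agreed within sampling noise. Alternatives used limma 3.58.1 (voom) and DESeq2 1.42.0. Simulated counts with known changes were recovered in 72.7% (tau), 53.4% (PS19), 74.9% (IkbkbCA) and 81.6% (Ikbkb-/-) of cases, pooled over changes of 1.5, 2, 4 and 8 fold. In PS19 the share was 6.12% at 1.5 fold, 25% at 2 fold and 83.3% at 4 fold. All 8 genes were named in every comparison, and of the pathway lists the 4 highest and 4 lowest called genes, with direct partners of the 8 named after their values were seen. The genes and lists were chosen with earlier results of these data known. Of the 68 pathway genes, Lilrb4a was not matched. Precision follows the depth, from 1672052 to 8349128 reads in genes. Of the marker genes and of the motifs examined, 1 each is not reported here.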

Additional observations from a re-analysis of the deposited data

Results flagged for a closer look

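Within groups of 4 or 5 libraries, 5 of 63 sets of values had a library far from the rest by Dixon's test, where chance gives about 1 in 20. These were Cd40 in NTG library 1 (0 CPM, the others 3.61 to 4.23), Cd40 in Ikbkb-/- library 3 (1.58 CPM, the others 4.13 to 4.49), Cd72 in NTG library 4 (8.42 CPM, the others 12.2 to 12.7), Cd83 in NTG library 3 (404 CPM, the others 315 to 322) and Slamf7 in tau library 1 (11.6 CPM, the others 21.3 to 22.5).

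The effects of separate comparisons differed by a direct test in 11 cases. Active IKKβ minus Ikbkb deletion gave 1.58 for Cd274 and 1.41 for Cd80 on the log2 scale. Tau minus active IKKβ gave 2.72 for Cd40, 1.59 for Cd72, 1.82 for Icam1 and 3.05 for Slamf7. The values for Cd40 and Slamf7 rest on very few counts, in the vehicle libraries and in the IkbkbCA experiment respectively. Tau minus PS19 gave 0.98 for Cd86, 1.97 for Cd72, -2.17 for Cd83, 1.87 for Icam1 and 2.83 for Slamf7.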

How the results depend on the processing

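Of 974 log2 values of single genes under all alternatives, 869 kept their direction and side of the threshold, 44 lost a call, 18 gained one and 43 changed sign, of which 1 (Cd86 with tau) had been called or became so. With tau, 3 genes were called higher when 10 counts were required in every library, where Cd274 and Slamf7 were not tested. Microglia-marker scaling also called 3 higher and gave Cd86 -0.30. In PS19, 2 were called higher without the filter and 2 by DESeq2. With active IKKβ, marker scaling called 2 higher and 2 lower. With Ikbkb deleted, 2 were called lower without the filter, 2 with marker scaling, 0 in the joint fit and 0 with 10 counts in every library, where Cd40 was not tested. For active IKKβ minus deletion, 1 was called with total-count scaling and 1 by voom, and for tau minus active IKKβ 2 by voom. Leaving out single libraries gave 0 to 1 lower with tau, 0 to 2 higher in PS19, 1 to 2 lower with Ikbkb deleted, 0 to 3 for active IKKβ minus deletion and 2 to 4 for tau minus PS19. Where not given in the report, the cause was not tested.

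Among values not called in either fit, sign changes were as follows. For Slamf7 in PS19 the values were 0.0038 (total-count scaling), 0.20 (voom), 0.24 (marker scaling) and 0.80 (age covariate). Cd40 in IkbkbCA had 0.020 (RLE scaling), 0.033 (voom), 0.012 (no filter), 0.019 (DESeq2), 0.0071 (joint fit) and 0.61 (IkbkbWT libraries 4 and 5 only), and Cd86 had 0.11 in the last. Cd274 in Ikbkb-/- had 0.014 (DESeq2), 0.030 (joint fit) and 0.59 (Ddx3y covariate), and Cd80 had -0.23 (voom) in place of 2.06 for tau minus active IKKβ. With single libraries left out, Slamf7 ran from -0.63 to 0.45 and Cd274 from -0.41 to 0.52 in PS19, Cd86 from -0.16 to 0.064 and Cd40 from -0.23 to 0.14 in IkbkbCA, Cd274 from -0.15 to 0.14 in Ikbkb-/-, Cd83 from -0.21 to 0.055 for active IKKβ minus deletion, and Cd274 from -0.65 to 0.18 for tau minus active IKKβ.

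Over all genes, PS19 gave 8 calls in the reported fit, 98 with DESeq2, 166 without the filter, 4 with voom and 0 with age as a covariate. Total-count scaling moved the share of calls that were higher from 48.5% to 31.9% with tau and from 50.5% to 37.6% in IkbkbCA. Marker scaling called 297 genes higher and 8918 lower with tau, 313 and 4934 in IkbkbCA, and 470 and 993 in Ikbkb-/-. Cd40, Cd80 and Slamf7 were limited by depth in 1 or more experiments. Marker scaling and the IkbkbWT splits were chosen after seeing the data. No paired analysis was possible because the labels give the groups no shared replicate numbers.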
